A study of Mus musculus and Homo sapiens with 9 samples.

Results

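The nuclear genes of the mitochondrial respiratory chain were examined in 9 lists of CUT&Tag peaks, and the question was at how many of them, and how strongly, a peak lay over the promoter. The genes were chosen by symbol alone, as nuclear protein-coding genes whose symbol begins with NDUF, UQCR, ATP5 or COX plus a digit, together with SDHA to SDHD. This gave 103 mouse gene records of 21938 protein-coding genes and 107 human genes of 20033. The mouse records hold 102 symbols, because Atp5o is annotated as 2 records. The human genes include 2 readthrough records, NDUFC2-KCTD14 and ATP5MF-PTCD1. ATP5MF-PTCD1 shares its promoter peaks with ATP5MF, so a peak there counts for both genes. A gene was said to carry a promoter peak when the midpoint of a peak lay within 1 kb of the start site of any of its transcripts.

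The respiratory chain is built in the inner mitochondrial membrane. Complex I oxidises NADH, complex II (succinate dehydrogenase) oxidises succinate, complex III passes electrons from ubiquinol to cytochrome c, complex IV (cytochrome c oxidase) reduces oxygen, and complex V (ATP synthase) uses the proton gradient to make ATP. A few of the most hydrophobic subunits are encoded in the mitochondrial DNA, and the nucleus encodes the rest and all assembly factors. Many of the nuclear genes are transcribed steadily in every tissue from CpG-rich promoters. R-loops, in which a transcript pairs with its template and displaces the other DNA strand, often form at such promoters.

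CUT&Tag directs a transposase to the target of an antibody and sequences the DNA cut beside it. S9.6 is an antibody against RNA-DNA hybrids, and it was used in 4 libraries of mouse embryonic fibroblasts (MEFs), namely Mcm8 wildtype (WT), Mcm8 knockout (KO, in which an exon was deleted), shControl and shDdx5 (control and Ddx5 knockdown by adenoviral shRNA), and in a further MEF library no primary antibody was added. The MEFs came from the trunks of mouse embryos on a mixed C57BL/6J and ICR background and were immortalised with an SV40 lentivirus, so they are a dividing cell line. In HEK293, a human embryonic kidney line, the 4 libraries were mouse IgG, anti-FLAG after transfection of a FLAG-MCM8 plasmid, S9.6, and S9.6 after transfection of an RNH1 plasmid (in the study this stands for RNase H1, the nuclease that cuts the RNA of a hybrid). MCM8 is a DNA helicase and DDX5 an RNA helicase.

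Each group held 1 library. A difference between lists therefore compares these libraries and has no replicate check, and no p-value was computed. Intervals are 95% Wilson intervals and cover counting error only. The no-antibody library was shallow, with 720 fragments per Mb recovered from its peaks against 5729 to 7001 in the other MEF libraries and 8314 to 11050 in HEK293. Of 8 mesenchymal marker genes, only Vim had a promoter peak in WT, KO and shControl, and Vim and Twist1 had one in shDdx5. Of 6 markers checked in HEK293, 2 had one in S9.6, among them the kidney-lineage gene PAX2, 1 (VIM) in the RNH1 list and 0 in FLAG-MCM8 and IgG, so most markers of either cell type lacked a peak. Peaks do not measure expression, and neither the markers nor the knockdowns could be checked further from these lists. By western blot, the paper shows the DDX5 knockdown in MEFs and the absence of MCM8 from the testis of adult KO mice. In HEK293 the strongest peak inside MCM8, chr20:5967426-5968037 (hg38), ranked 1 in FLAG-MCM8 with fold 21.6. A peak with the same ends ranked 1 in S9.6 (fold 19.7) and 4 in the RNH1 list (fold 17.7), although their labels name no MCM8 plasmid. The IgG list had none, and the part of this in the results below was not tested. The lowest −log10 p was 3.0 among MEF peaks and 5.0 among HEK293 peaks, so lists of the 2 species differ in threshold.

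The sequences below show where the peaks that recurred lay. At Ndufa11, an accessory subunit in the membrane arm of complex I, the 101 bases around the summit are given for the WT peak (chr17:56717268-56717368, mm10, plus strand), the HEK293 S9.6 peak (chr19:5904438-5904538, hg38, minus strand) and the FLAG-MCM8 peak (chr19:5904135-5904235, hg38, minus strand). The summit is the middle base, and none of these stretches holds one of the motifs described below.
Ndufa11 WT summit: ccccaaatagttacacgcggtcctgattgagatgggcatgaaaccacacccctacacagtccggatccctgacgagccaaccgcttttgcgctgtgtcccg
NDUFA11 S9.6 summit: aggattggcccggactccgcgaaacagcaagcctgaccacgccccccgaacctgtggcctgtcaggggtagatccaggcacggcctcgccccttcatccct
NDUFA11 FLAG-MCM8 summit: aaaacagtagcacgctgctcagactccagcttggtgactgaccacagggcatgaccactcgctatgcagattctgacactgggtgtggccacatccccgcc
The GC content of these stretches was 57.4%, 66.3% and 57.4%, and they held 7, 7 and 3 CpG dinucleotides.

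Promoters are shown for a gene with a peak in all 4 MEF S9.6 lists (Cox18), a second such gene (Uqcrq), a gene with a peak in KO and shDdx5 only (Ndufaf8), each beside its human counterpart, and for the complex II genes Sdhd and SDHB. Each sequence runs 5′ to 3′ along the gene from 250 bases before its 5′-most annotated start site to 30 bases from it. They were read from mm10 or hg38. Capitals mark exact matches to the core of the NRF1 motif (CGCATGCG), an ETS-family motif of the kind bound by GABPA (CCGGAAG) or a YY1 motif (AAGATGGCG), searched on both strands. Cox18 is at chr5:90223972-90224251 (mm10, minus strand), COX18 at chr4:73069726-73070005 (hg38, minus), Uqcrq at chr11:53430802-53431081 (mm10, minus), UQCRQ at chr5:132866380-132866659 (hg38, plus), Ndufaf8 at chr11:120098678-120098957 (mm10, plus), NDUFAF8 at chr17:81239055-81239334 (hg38, plus), Sdhd at chr9:50603783-50604062 (mm10, minus) and SDHB at chr1:17054003-17054282 (hg38, minus).
Cox18: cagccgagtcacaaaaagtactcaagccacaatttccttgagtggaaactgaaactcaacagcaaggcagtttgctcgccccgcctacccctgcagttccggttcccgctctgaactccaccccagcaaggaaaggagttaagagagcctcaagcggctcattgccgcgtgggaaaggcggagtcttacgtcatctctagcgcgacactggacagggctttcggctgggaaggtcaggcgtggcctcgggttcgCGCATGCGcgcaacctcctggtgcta
COX18: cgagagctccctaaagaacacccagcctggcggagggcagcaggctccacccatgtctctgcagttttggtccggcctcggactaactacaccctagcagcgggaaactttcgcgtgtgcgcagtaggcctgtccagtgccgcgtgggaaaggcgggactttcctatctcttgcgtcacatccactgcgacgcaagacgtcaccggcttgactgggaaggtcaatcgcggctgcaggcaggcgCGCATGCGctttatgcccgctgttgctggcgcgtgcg
Uqcrq: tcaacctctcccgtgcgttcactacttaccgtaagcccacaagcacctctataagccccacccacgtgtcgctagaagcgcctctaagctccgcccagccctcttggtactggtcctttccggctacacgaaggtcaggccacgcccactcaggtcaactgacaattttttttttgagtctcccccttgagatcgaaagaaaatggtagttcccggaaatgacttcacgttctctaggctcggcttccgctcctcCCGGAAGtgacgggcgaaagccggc
UQCRQ: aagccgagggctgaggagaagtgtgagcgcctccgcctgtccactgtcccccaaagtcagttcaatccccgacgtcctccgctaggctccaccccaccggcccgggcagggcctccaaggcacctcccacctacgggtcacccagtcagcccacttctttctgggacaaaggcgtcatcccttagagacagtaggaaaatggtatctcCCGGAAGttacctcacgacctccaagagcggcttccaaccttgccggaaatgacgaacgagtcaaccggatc
Ndufaf8: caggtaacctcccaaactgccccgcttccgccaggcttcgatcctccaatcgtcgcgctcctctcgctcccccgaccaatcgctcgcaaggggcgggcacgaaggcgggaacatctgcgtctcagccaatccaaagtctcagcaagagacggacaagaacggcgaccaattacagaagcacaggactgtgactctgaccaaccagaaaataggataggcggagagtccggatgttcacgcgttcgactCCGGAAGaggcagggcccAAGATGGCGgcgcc
NDUFAF8: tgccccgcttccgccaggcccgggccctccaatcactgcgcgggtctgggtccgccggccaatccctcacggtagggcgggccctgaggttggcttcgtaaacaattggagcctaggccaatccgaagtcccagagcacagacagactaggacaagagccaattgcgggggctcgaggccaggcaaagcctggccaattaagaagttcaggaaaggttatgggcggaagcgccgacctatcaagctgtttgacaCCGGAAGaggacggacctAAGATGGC
Sdhd: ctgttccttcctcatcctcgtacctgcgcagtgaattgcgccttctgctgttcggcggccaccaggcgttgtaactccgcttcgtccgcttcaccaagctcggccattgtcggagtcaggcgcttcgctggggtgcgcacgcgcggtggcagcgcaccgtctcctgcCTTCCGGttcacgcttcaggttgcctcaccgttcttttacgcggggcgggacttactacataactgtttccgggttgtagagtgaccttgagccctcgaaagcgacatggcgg
SDHB: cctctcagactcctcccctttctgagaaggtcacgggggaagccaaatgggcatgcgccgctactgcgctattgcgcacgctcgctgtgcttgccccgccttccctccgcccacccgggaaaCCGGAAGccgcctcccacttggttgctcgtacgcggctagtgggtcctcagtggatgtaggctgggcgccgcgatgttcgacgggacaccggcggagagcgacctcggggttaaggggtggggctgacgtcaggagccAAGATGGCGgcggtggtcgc
The last base of the YY1 motif of NDUFAF8 falls just past the stretch shown. In these pairs, which were picked with their sequences known, the same motif stood in both species near the start site. The NRF1 core began at +4 in Cox18 and at −7 in COX18, and the ETS motif at +5 in Uqcrq and at −42 in UQCRQ. Ndufaf8 had an ETS motif at −2 and a YY1 motif at +16, and NDUFAF8 had them at +4 and +22. A match is a description of the letters and not a measured binding site.

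Promoter peaks at respiratory chain genes were counted in each list first, beside the share of all protein-coding genes as the background. In MEFs, 13 members had one in WT (12.6%, interval 7.53 to 20.4%, against 11.3% of protein-coding genes), 25 in KO (24.3%, 17.0 to 33.4%, against 16.0%), 18 in shControl (17.5%, 11.3 to 25.9%, against 14.7%) and 41 in shDdx5 (39.8%, 30.9 to 49.5%, against 23.1%). The no-antibody list had 0 of 103, which allows a share of up to 2.91% (3 counts of the total, in place of the Wilson bound), where 1.24% of protein-coding genes had a peak. The intervals for KO and shDdx5 lay above the background of their list, and those for WT and shControl held it.

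In HEK293, 52 of 107 members had a promoter peak in S9.6 (48.6%, 39.3 to 58.0%, against 30.1%) and 42 in the RNH1 list (39.3%, 30.5 to 48.7%, against 24.6%), both above the background. FLAG-MCM8 had 11 (10.3%, 5.84 to 17.5%, against 12.0%) and IgG 7 (6.54%, 3.2 to 12.9%, against 5.59%), and both of these intervals held the background. The genes for mitochondrial ribosomal proteins, another large nuclear set for the organelle, had 8, 17, 17 and 24 of 78 in WT, KO, shControl and shDdx5 and 36, 24, 10 and 3 of 78 in S9.6, the RNH1 list, FLAG-MCM8 and IgG.

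**Figure D1:**
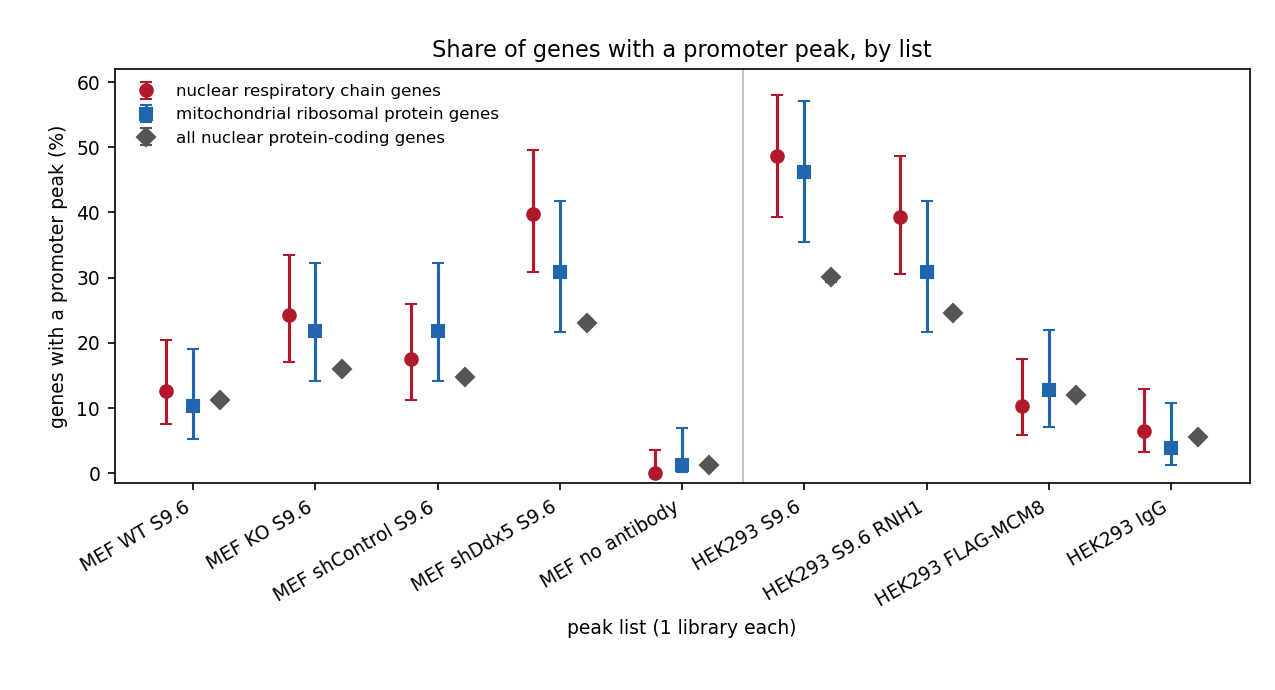
Share of genes with a promoter peak in each of the 9 lists (percent of genes, y axis), with 95% Wilson intervals for the respiratory chain genes, beside the mitochondrial ribosomal protein genes and all protein-coding genes. The respiratory chain genes stood furthest above all protein-coding genes in shDdx5 (39.8% against 23.1%) and in HEK293 S9.6 (48.6% against 30.1%).

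The genes of the 5 complexes were then taken in turn. Complex I had promoter peaks at 7 of 44 genes in WT against 12 in KO, and at 7 in shControl against 17 in shDdx5. Complex II had 0, 1, 1 and 1 of 4, complex III 2, 3, 4 and 5 of 8, complex IV 4, 5, 5 and 10 of 29, and complex V 0, 4, 1 and 8 of 18. The shControl gene of complex V was Atp5s, which was classed as neither a subunit nor an assembly factor. It also had a peak in KO and shDdx5. In HEK293 the S9.6 list had 22 of 46 for complex I, 2 of 4 for complex II, 6 of 9 for complex III, 11 of 28 for complex IV and 11 of 20 for complex V. The RNH1 list had 17, 1, 3, 11 and 10 of the same genes, so complex IV had as many as in S9.6.

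By role, core subunits were those that carry a redox cofactor or anchor complex II, and in ATP synthase the catalytic head, its central stalk and the c subunits of the rotor. Of 20 mouse core subunits, 0 had a promoter peak in WT and 5 in KO (25.0%), and 2 had one in shControl (10.0%) and 7 in shDdx5 (35.0%). These shares were below the protein-coding background in WT and shControl and above it in KO and shDdx5. They rest on 20 genes, no interval was computed for them, and a difference from the background was not tested. The 63 accessory subunits had 8, 13, 10 and 25, and the 17 assembly factors 5, 6, 5 and 8. A further 3 mouse genes, Atp5s among them, were given none of these roles. Pooled over the complexes, the assembly factors thus had a higher share than core or accessory subunits in each of these 4 lists. Within complex I this held in WT and KO only. There, 1 of 8 assembly factors had a peak in shControl (12.5%) and 2 of 8 in shDdx5 (25.0%). Accessory subunits of complex I had 17.2% and 41.4%, and core subunits 14.3% and 42.9%. Complex IV assembly factors had 4 of 9 in shControl and 6 of 9 in shDdx5. In HEK293 S9.6, 10 of 20 core subunits, 29 of 65 accessory subunits and 10 of 17 assembly factors had one.

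Single core genes of MEFs differed in where they were called. Sdha, Sdhb, Ndufs1 (the large iron-sulfur subunit of complex I) and Uqcrfs1 (the Rieske protein of complex III) had no promoter peak in any MEF list. Atp5a1 and Atp5b, the catalytic head subunits of ATP synthase, had one only in shDdx5, with folds of 3.49 and 3.06 and pileups of 9 and 11 fragments at the summit. The Atp5a1 peak lay inside the gene, with its summit in a coding exon. This peak was near the start of another transcript and away from the 5′-most annotated start. Here fold is the summit signal divided by the background that MACS2 models around the peak, and pileup is the number of fragments there, recovered from the fold and its p. Uqcrc1, named a core protein of complex III, and Cox5a were counted here as accessory subunits. Both were also in shDdx5 only, with pileups of 9 and 12. Ndufv1, which binds NADH and the flavin of complex I, was in KO only, with a pileup of 14 and fold 4.63.

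Of the complex II genes, Sdhc, a membrane anchor, had a peak in shControl only (pileup 10, fold 4.37). Sdhd, the other anchor, had one in KO (pileup 8, fold 3.19) and in shDdx5 (pileup 13, fold 4.39), on either side of the start site whose sequence is given above, with summits at +253 and −352. The KO peak had a −log10 q of 0.68 and so did not reach a q of 0.05.

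A promoter peak was present in all 4 MEF S9.6 lists at 5 members (4.85%, against 4.19% of protein-coding genes), namely Ndufa11, Uqcrq, Uqcr10, Cox14 and Cox18. Ndufa11 had pileups of 17 in the WT, 22 in the KO, 23 in the shControl and 29 in the shDdx5 library, with folds of 3.82, 4.52, 4.65 and 5.29. Its summits fell at −449, −450, −447 and −447, within 3 bp of each other. Uqcrq, a small subunit of complex III, had pileups of 19, 22, 19 and 24 and folds of 4.95, 5.18, 5.26 and 5.74, and its summits lay between −253 and −147.

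Cox14, which supports synthesis of the mitochondrially encoded COX1, had pileups of 15, 16, 16 and 29, and the shDdx5 value stood apart from the other three. Cox18, an insertase for COX2, had 13, 13, 19 and 18. Uqcr10, the smallest of these in signal, had 8, 8, 10 and 13. Its WT and KO peaks did not overlap, with summits at +213 and −65, so the gene counted as shared without a shared position.

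A peak in KO and shDdx5 but in neither WT nor shControl was found at 7 members (6.8%, against 2.95% of protein-coding genes), namely Atp5g1, Cox4i1, Cox8a, Ndufaf8, Ndufb5, Ndufv2 and Sdhd. The reverse pattern, in WT and shControl but in neither KO nor shDdx5, was found at 0 members, where 0.365% of protein-coding genes had it. Atp5g1 encodes a c subunit of the ATP synthase rotor and had pileups of 10 in KO and 13 in shDdx5. Cox8a, a small subunit of complex IV, had 11 and 18. Ndufaf8, a complex I assembly factor, had 16 and 16 with summits close to its start, and Ndufb5, an accessory subunit, had 10 and 10. Ndufv2, an iron-sulfur subunit next to Ndufv1, had 10 and 12.

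Cox4i1, the regulatory subunit of complex IV, had 11 and 17 fragments at different sites. The KO summit lay in an intron, 4854 bp inside the gene and close to the start of a shorter transcript. The shDdx5 summit lay upstream of the 5′-most annotated start, at −288. Pileups at these 7 genes ranged from 8 to 18, and the lowest called pileup of a MEF S9.6 library was 6 or 7.

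Between KO and WT, 16 members had a promoter peak in KO and not in WT (15.5%, against 9.38% of protein-coding genes), and 4 had one in WT and not in KO (3.88%, against 4.66%). The latter were Cox19, which serves copper delivery to complex IV, Cox6b1, Ndufb4 and Ndufb8, with pileups of 8 to 11. Between the knockdown libraries, 28 members had a peak in shDdx5 and not in shControl (27.2%, against 13.3%), and 5 had one in shControl and not in shDdx5 (4.85%, against 4.97%), namely Ndufa8, Ndufaf2, Ndufc1, Sdhc and Uqcr11. Of the 13 members called in WT, 69.2% were called in KO, and of the 25 called in KO, 36.0% were called in WT. Over protein-coding genes these shares were 58.8% and 41.5%. For shControl and shDdx5 they were 72.2% of 18 and 31.7% of 41 members, against 66.3% and 42.3% of protein-coding genes.

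**Figure D2:**
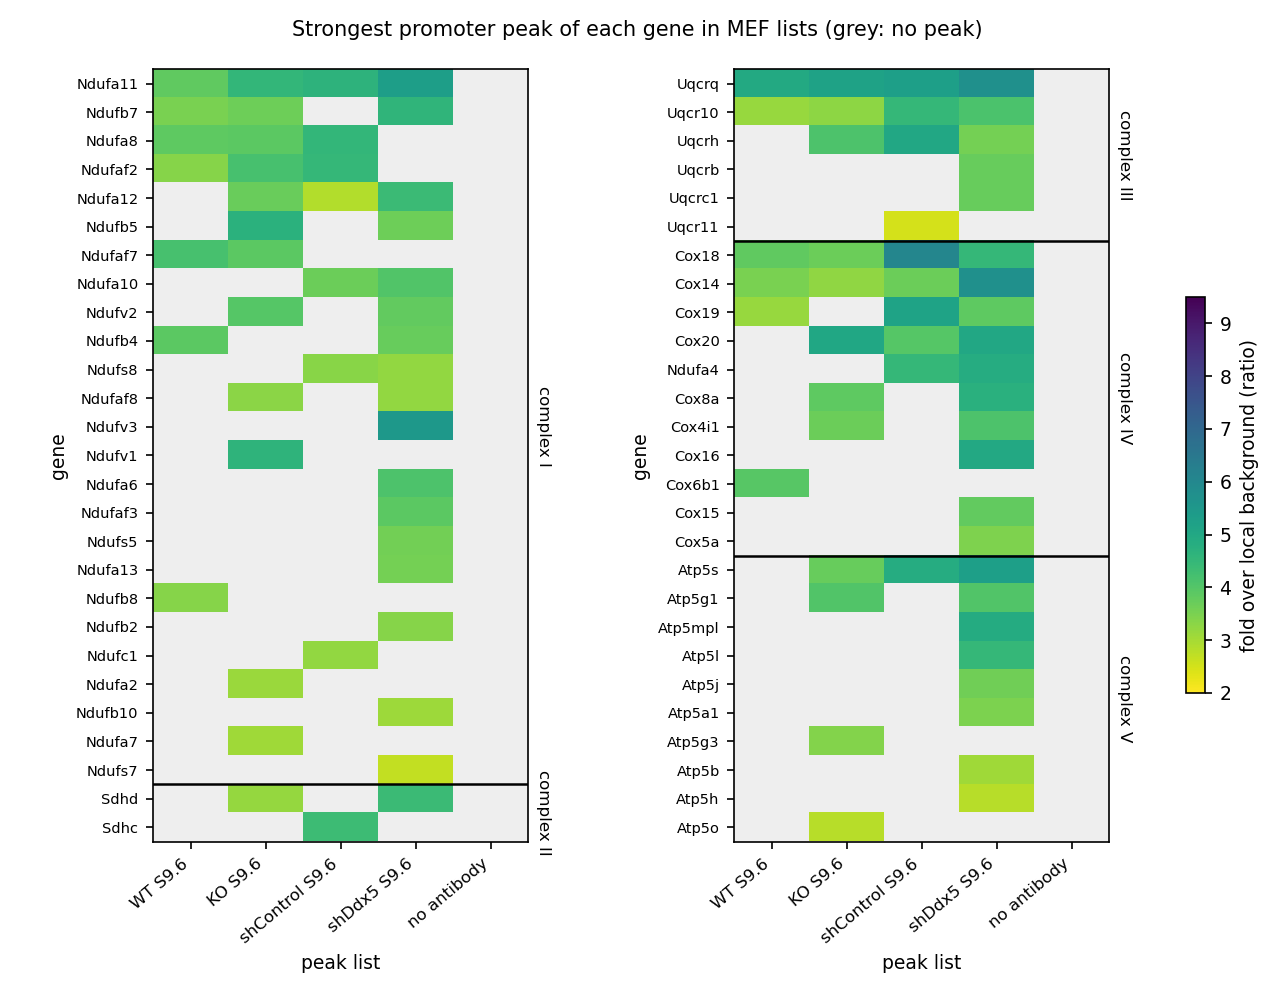
Fold enrichment at the summit (colour) of the promoter peak of each respiratory chain gene with a peak in any MEF list, by complex (panels) and list (columns), with grey cells where no peak was called. The shDdx5 column holds 41 filled genes and the no-antibody column 0.

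In shDdx5 the strongest members after Cox14, Ndufa11 and Uqcrq were Ndufv3, an accessory subunit beside the NADH site (pileup 19, fold 5.49), and Cox20, a chaperone of COX2. Cox20 had pileups of 18 in KO, 14 in shControl and 20 in shDdx5, and no WT peak. Uqcrh, the hinge protein of complex III, had 13 in KO, 18 in shControl and 14 in shDdx5, and Cox19 had 11 in WT, 17 in shControl and 15 in shDdx5. The Cox19 summits lay in introns, near the start of another transcript and away from the 5′-most annotated start of the gene. Ndufaf7, a methyltransferase needed for complex I assembly, had 11 in WT and 8 in KO and no peak in the knockdown libraries. These genes differ from the sets above, as their highest value was not always in KO or shDdx5.

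Peaks of the members were about as strong as those of other genes in WT, KO and shDdx5, and had a higher median in shControl. The median fold was 3.82 over 13 member peaks and 3.75 over all protein-coding promoter peaks in WT, 3.75 and 3.85 in KO, 4.5 and 3.68 in shControl, and 3.87 and 3.87 in shDdx5. A q of at most 0.05 was reached by 53.8% of the 13 member peaks in WT (52.7% of protein-coding promoter peaks), 64.0% of 25 in KO (59.0%), 73.7% of 19 in shControl (49.5%) and 83.7% of 43 in shDdx5 (77.7%). Many MEF calls were thus near the limit of detection at this depth.

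Where a gene was called in both libraries of a pair, its pileups were divided by the lowest background of their library and compared. The KO to WT ratio had a median of 1.17 over 9 members (range 0.85 to 1.61), and over protein-coding genes it was also 1.17. The highest was Ndufaf2, a complex I assembly factor (1.61), followed by Ndufa11 (1.51). The shDdx5 to shControl ratio had a median of 1.09 over 13 members (0.676 to 1.59), against 1.18 over protein-coding genes, with Ndufa12 (1.59) and Cox14 (1.58) highest and Uqcrh lowest. Between the 2 control libraries the shControl to WT ratio had a median of 1.32 over 8 members (1.06 to 1.63), all above 1, against 0.989 over protein-coding genes. This difference, between libraries with neither Mcm8 nor Ddx5 removed, was larger than either of those above. The higher counts in KO and shDdx5 went with medians at shared genes that were no higher than those of all protein-coding genes.

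In HEK293 the strongest promoter of the set was NDUFA11, at the sequences shown above. Its pileup was 105 in S9.6, 98 in the RNH1 list and 33 in FLAG-MCM8, with folds of 8.78, 7.53 and 8.52, and the IgG list had no peak there. The peak ranked 32 of its list in S9.6, 45 in the RNH1 list and 69 in FLAG-MCM8. The 3 summits lay at −482, −636 and −179 within 1 broad peak of each list. The mouse promoter carried its peak at a like distance, but the start site of VMAC lies within 1 kb in both species, so the signal cannot be assigned to either gene.

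COX14 followed with pileups of 58 in S9.6 and 48 in the RNH1 list, COX20 with 60 and 48 (17 in FLAG-MCM8), SDHA with 42 and 29, and UQCRC1 with 41 and 31. All of these had the higher pileup in S9.6. ATP5MC1, a c subunit, had the opposite order, with 31 in S9.6 and 55 in the RNH1 list. NDUFA4, now known as a subunit of complex IV, had 30 and 40, COX7A2L, which helps join complexes III and IV, 33 and 46, and ATP5F1B, the human counterpart of Atp5b, 42 and 52. The COX7A2L peaks lay inside the annotated gene, near the start of another transcript and away from the 5′-most annotated start. Which start is in use in these cells was not measured. COX18 had 38 and 41, which were level once divided by the background of their library (16.7 and 16.5).

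The comparison of S9.6 with the RNH1 list asks which peaks go with overexpression of the nuclease. A peak in S9.6 and not in the RNH1 list was found at 17 members (15.9%, against 12.6% of protein-coding genes) and the reverse at 7 (6.54%, against 7.18%). Both lists called 35 members (32.7%, against 17.5%), which is 67.3% of the 52 in S9.6 and 83.3% of the 42 in the RNH1 list, against 58.1% and 70.9% over protein-coding genes. Over these 35 the ratio of background-scaled pileups, RNH1 list to S9.6, had a median of 0.985 (0.556 to 1.63), and 16 were above 1. Over protein-coding genes in both lists the median was 0.919.

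The members strongest in S9.6 without a peak in the RNH1 list were SDHB, NDUFB11, NDUFV2, NDUFAF8 and ATP5PF. SDHB, the iron-sulfur subunit of complex II, had a pileup of 28 and fold 6.48, with its summit at +77 in a coding exon, just past the promoter stretch shown above. NDUFB11 had 32, NDUFV2 23, NDUFAF8 42 and ATP5PF, a stalk subunit of ATP synthase, 21. The members strongest in the RNH1 list without an S9.6 peak were ATP5PB (24), NDUFA13 (28), NDUFC1 (23), NDUFS8 (36) and COX5A (21). All of these stood above the lowest pileups of the lists, 11 in S9.6 and 12 in the RNH1 list. For 5 of the 35 genes called in both, NDUFAF4, NDUFB10, NDUFAF6, NDUFV1 and NDUFA4L2, the compared peaks did not overlap.

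**Figure D3:**
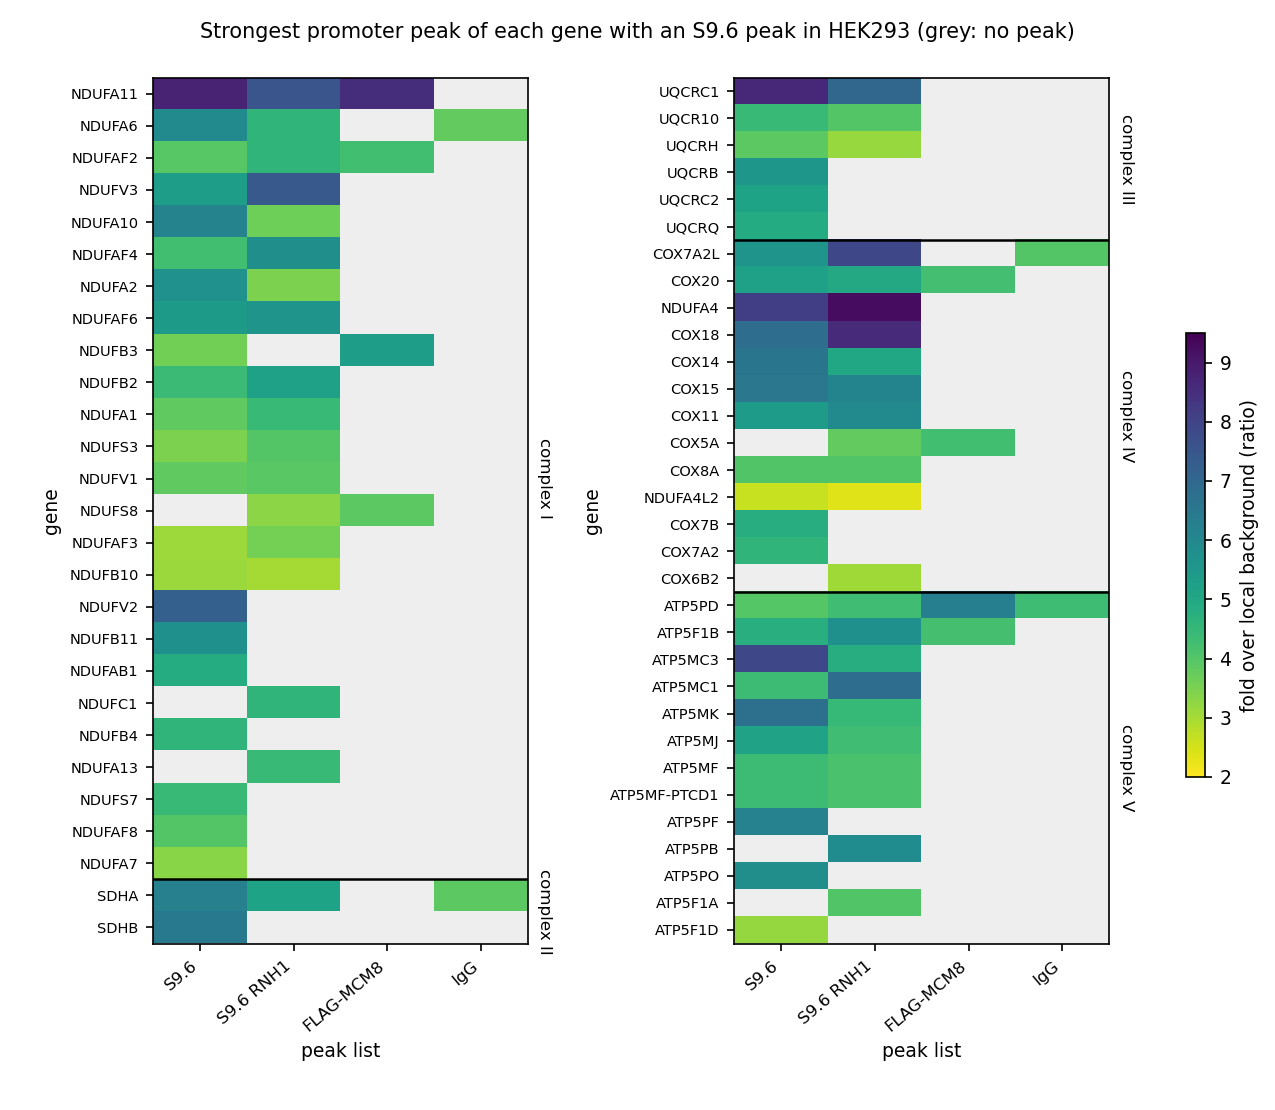
Fold enrichment at the summit (colour) of the promoter peak of each respiratory chain gene with a peak in HEK293 S9.6 or the RNH1 list, by complex (panels) and list (columns), with grey cells where no peak was called. S9.6 fills 52 genes and the RNH1 list 42, and ATP5PD is filled in all 4 lists.

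FLAG-MCM8 was compared with S9.6 to see at which promoters both lay. Both were present at 6 members (5.61%, against 7.39% of protein-coding genes), which is 54.5% of the 11 members of FLAG-MCM8 and 11.5% of the 52 of S9.6. Over protein-coding genes these shares were 61.6% and 24.6%. The 6 were NDUFA11, NDUFB3, NDUFAF2, COX20, ATP5F1B and ATP5PD. FLAG-MCM8 pileups were 33 at NDUFA11, 17 at COX20, 15 at ATP5F1B, 14 at NDUFB3, 11 at NDUFAF2 and 18 at ATP5PD, against 105, 60, 42, 13, 14 and 20 in S9.6. At NDUFAF2 the 2 peaks did not overlap and lay at different start sites of the gene. ATP5PD, subunit d of the ATP synthase stalk, also had peaks in IgG (pileup 19) and the RNH1 list (22).

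Among the members with a FLAG-MCM8 peak and no S9.6 peak were ATP5MC2 (pileup 20, fold 6.62), NDUFS8 (21), COX10, a haem synthesis enzyme (12), and COX5A (11). NDUFS8 and COX5A had peaks in the RNH1 list. These overlapped the FLAG-MCM8 peak at COX5A but not at NDUFS8, where the FLAG-MCM8 peak lay further inside the gene. The IgG list had promoter peaks at NDUFA9 (pileup 28, fold 6.68), COX7A2L (27), SDHA (23), SDHC (21), NDUFAF7 (21), NDUFA6 (20) and ATP5PD (19). At SDHA the IgG peak lay 18110 bp inside the gene at the start of a short transcript, away from the S9.6 peak, whose summit was at −60. The IgG peaks of NDUFA6 and COX7A2L shared bases with S9.6 peaks of 29 and 33 fragments. COX4I1, NDUFS1, UQCRFS1 and SDHD had no promoter peak in any HEK293 list.

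**Figure D4:**
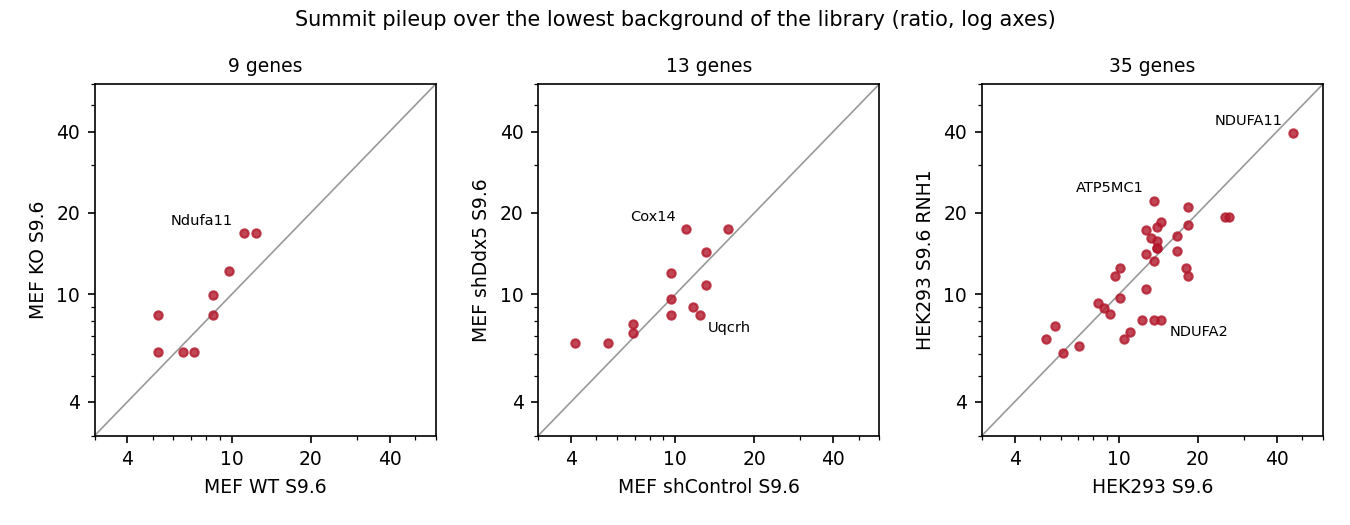
Summit pileup divided by the lowest background of its library, for the genes called in both libraries of a pair (log axes, 1 point per gene, the line marks equal values). Of the 35 genes in the right panel 16 lie above the line, with ATP5MC1 furthest above (1.63) and NDUFA2 furthest below (0.556).

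The position of the peaks relative to the genes was similar across the S9.6 lists. Relative to the nearest start site of the gene, the median summit lay at +3 for WT and −1 for KO, at −19.5 for shControl and −54 for shDdx5, and at −40.5 in S9.6 and −76.5 in the RNH1 list. With only the strongest peak of each gene counted, 9 of 13 summits in WT, 28 of 41 in shDdx5 and 39 of 52 in S9.6 were within 250 bp of a start site. In FLAG-MCM8 6 of 11 and in IgG 3 of 7 were, with median summits at −47 and −111. Summits upstream of the annotated gene numbered 4 of 13 in WT, 10 of 25 in KO, 9 of 19 in shControl, 21 of 43 in shDdx5, 28 of 57 in S9.6 and 17 of 44 in the RNH1 list, where the peak at ATP5MF is counted also for its readthrough gene.

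**Figure D5:**
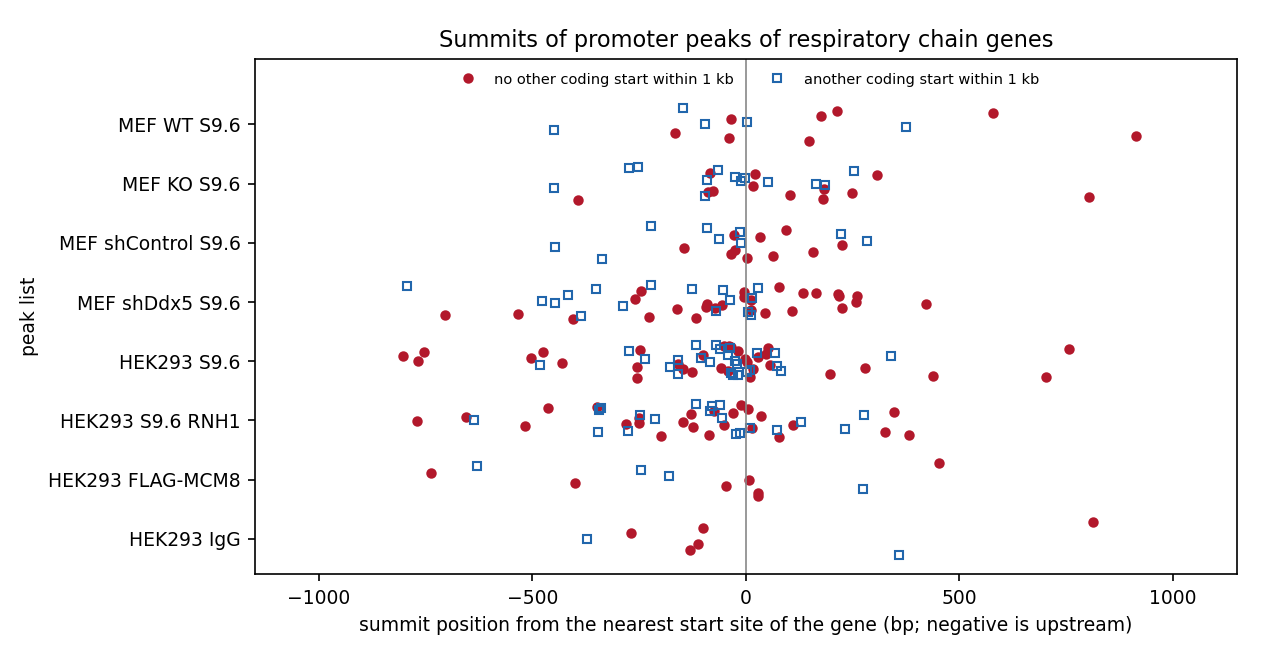
Distance of each promoter peak summit from the nearest start site of its respiratory chain gene (bp, x axis, negative is upstream) by list, with open squares where another protein-coding gene starts within 1 kb. In HEK293 S9.6, 39 of 52 summits lie within 250 bp of the start when only the strongest peak of each gene is counted.

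Many respiratory chain genes start close to another gene. Another protein-coding start site, on either strand, lay within 1 kb at 40 of 103 mouse members (38.8%, against 14.5% of protein-coding genes) and 52 of 107 human members (48.6%, against 23.2%). NDUFA11 pairs with VMAC, UQCRQ with GDF9, UQCR10 with ZMAT5, UQCRH with LRRC41, NDUFAF8 with TEPSIN and ATP5PF with GABPA, the last a regulator of respiratory genes. In HEK293 S9.6 a peak was present at 46.2% of protein-coding genes with such a neighbour and 25.2% of those without. The members of that list were at 48.1% and 49.1%, and in the RNH1 list at 42.3% and 36.4%. In MEFs the members had 17.5% with and 9.52% without a neighbour in WT, 35.0% and 17.5% in KO, 22.5% and 14.3% in shControl, and 42.5% and 38.1% in shDdx5. Protein-coding genes had 22.1% and 9.48%, 31.5% and 13.4%, 28.3% and 12.4%, and 42.9% and 19.7% in the same lists.

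Promoter sequences were read from 250 bases before to 50 after the 5′-most annotated start, which need not be the start in use. Those of the members were richer in CpG than those of all protein-coding genes but not in GC. The median observed-to-expected CpG ratio was 0.782 in mouse members and 0.525 in all protein-coding genes, and 0.793 and 0.696 in human. Median GC was 56.0% and 55.0% in mouse and 59.7% and 60.3% in human. The NRF1 core stood in 7.77% of mouse member promoters (2.61% of all) and 11.2% of human ones (2.46%). The ETS motif stood in 22.3% (10.8%) and 21.5% (11.9%), and the YY1 motif in 4.85% (1.7%) and 6.54% (1.88%).

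At the human members any of the 3 motifs was found in 30.8% of the 52 with an S9.6 peak and in 38.2% of the 55 without, and the NRF1 core in 3.85% and 18.2%. In mouse, any motif stood in 31.5% of the 54 members with a peak in some S9.6 list and 26.5% of the other 49, and the NRF1 core in 7.41% and 8.16%. CpG-rich promoters, with a CpG ratio of at least 0.6 and GC of at least 50%, made up 72.2% of these mouse members with a peak and 46.9% of those without, and 78.8% and 69.1% in human.

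Because CpG content moved with the peaks, the shares were set side by side within each promoter class, a split chosen after the data were seen. Among CpG-rich promoters, the shares of members and of all protein-coding genes with a peak were 16.1% and 19.8% in WT, 32.3% and 27.7% in KO, 21.0% and 24.6% in shControl, and 43.5% and 39.6% in shDdx5. They were 51.9% and 39.4% in S9.6 and 39.2% and 32.4% in the RNH1 list. Among the other promoters the shares were 7.32% and 5.33% in WT, 12.2% and 7.8% in KO, 12.2% and 7.82% in shControl, 34.1% and 11.5% in shDdx5, 39.3% and 18.5% in S9.6, and 39.3% and 15.1% in the RNH1 list. The part of CpG content and of neighbouring genes in the counts was not tested further.

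Between the species, 100 pairs of genes with matching symbols or known renamed counterparts were compared. A peak in some MEF S9.6 list was found at 53 and a HEK293 S9.6 peak at 50, with 33 in both. All 5 genes present in the 4 MEF S9.6 lists also had a HEK293 S9.6 peak, that is NDUFA11, UQCRQ, UQCR10, COX14 and COX18. With a p of 1e-05 or lower required of every peak in both species, the numbers were 37, 50 and 22, and 4 of 4 genes. The same overlap over all protein-coding gene pairs was not computed, so these counts do not show whether the members differ from other genes.

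Members also held peaks away from their promoters. Inside their gene bodies there were 4 distinct peaks in WT and 7 in KO, 8 in shControl and 10 in shDdx5, and 4 in the no-antibody list, the last with 3 fragments each at Ndufb3, Ndufa5, Cox10 and Ndufs6. The strongest in MEFs (pileup 36 in shDdx5) fell in the long Atp5o record at the start sites of Cryzl1 and Itsn1, and so lies at a promoter of other genes. HEK293 had 17 in S9.6, 13 in the RNH1 list, 12 in FLAG-MCM8 and 8 in IgG, of which COX19 held 5 in S9.6 and 3 in the RNH1 list. The same counts over all protein-coding genes were not computed, so these do not show whether the members differ from other genes.

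Other genes of oxidative phosphorylation, a fixed list of assembly factors, cytochrome c and regulators, gave 7 of 46 in WT against 13 in KO and 15 in shControl against 21 in shDdx5, with 0 in the no-antibody list, and 27 of 48 in S9.6, 18 in the RNH1 list, 5 in FLAG-MCM8 and 2 in IgG. Lrpprc, which stabilises mitochondrial transcripts, and Timmdc1, a complex I assembly factor, had peaks in all 4 MEF S9.6 lists. Nrf1 and Gabpa, regulators of respiratory genes, had one in shDdx5 only. TFAM, the mitochondrial DNA packaging factor, had one in HEK293 S9.6 and not in the RNH1 list.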

How the data were processed

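The CUT&Tag peak lists of 9 libraries were used. The authors trimmed adapters and discarded low-quality reads, aligned to mm10 or hg38 with bowtie2 2.2.4 and called peaks with MACS2 2.2.7.1 per library (the submitters' processing notes name MACS2 2.1.2 and Trimmomatic), and the no-antibody library did not serve as input for MEFs. The calling threshold and the handling of duplicates are not given in the sources used here. The deposited columns hold a fold enrichment (a ratio), the −log10 p, the −log10 q and a score, which repeats the −log10 p and was not used. HEK293 peak numbers skip, so those lists were filtered after calling.

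Nuclear peaks were kept (6 to 9 mitochondrial peaks left out per HEK293 list, 0 in MEFs). Start sites came from GENCODE M21 and 44. Pileup and background were solved from the fold and the Poisson p of each peak with a −log10 p below 250. Tests on simulated data returned the pileup of 3000 of 3000 peaks by the solver and, by the gene assignment, 200 of 200 planted promoter peaks and 0 of 200 decoys. Genes named were a fixed set of core subunits, the 5 members with the highest −log10 q of each list, and the members of the patterns described. COX10, ATP5MC1 and other genes that stand in a count were named after their values were seen. Members and lists were chosen with earlier results of these data known, and the splits by CpG content and neighbouring start after the data were seen. Some genes in the counts are not reported here by name. Where several peaks of a gene were called, pairs of lists were compared by their strongest peaks. Scripts used Python 3.11.15 with scipy 1.17.1, pandas 2.3.3 and numpy 2.4.6, and figures were drawn with matplotlib 3.10.9.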

Additional observations from a re-analysis of the deposited data

How the results depend on the processing

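The counts of members in each list and in each pair of lists, 16 in all, were repeated under 7 or 8 alternatives each, 126 in all (the promoter window at 500 bp or 3 kb, the gene's 5′ start only, any base of the peak, a q of 0.05, a fold of 4, equal numbers of peaks, and peaks with a control peak left out), and 109 stayed within 1.5 times. With a q of 0.05 or lower, WT had 7, KO 16, WT without KO 2 and shControl without shDdx5 3. With a fold of at least 4, WT had 2, KO 8, shControl 11, shDdx5 20, KO without WT 7, WT without KO 1, shDdx5 without shControl 14 and FLAG-MCM8 with S9.6 3. With the 4314 strongest peaks of each MEF list, shDdx5 had 25, and 15 without shControl. With only the 5′ start of each gene, IgG had 4 and WT without KO 1. With a window of 3 kb the no-antibody list had 3. The number of members in KO alone less those in WT alone was 6 to 13 under these settings, for shDdx5 and shControl 9 to 25, and for the RNH1 list and S9.6 −12 to −6. Counts by complex and role, in patterns of 4 lists, in gene bodies and between species were not repeated under them. The member share was above the protein-coding share in 47 of 48 alternatives over the 6 S9.6 lists, the exception being WT with a fold of at least 4, and in 0 of 8 for FLAG-MCM8. No paired analysis was possible because each group holds 1 library. With pileups of 6 to 29 in MEFs, a gene without a peak may differ from one with a peak by a few fragments.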
